A study of Mus musculus with 14 samples.

Results

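The 49 genes described here code for short-lived mRNAs of inflammation and of the immediate-early response, many of them known targets of the ZFP36 proteins. They are a list of names that uses no measured value as a criterion but was drawn up with earlier results of these data known, and are 49 of the 49315 genes in the count table. All 49 were found in the spleen table and 48 of them had enough counts to be tested, out of 16911 genes tested. The ovary table holds 42 of them, all tested among 18504 genes, and Tnf, Il1a, Il1b, Il6, Il10, Ptgs2 and Rgs1 were not analysed in the ovary here. The question was whether such mRNAs are more abundant in either organ when Zfp36l2 is missing.

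Poly(A) RNA was sequenced from 4 wild-type and 4 L2-fKO spleens and from 3 wild-type and 3 L2-fKO ovaries. The spleens came from pups soon after birth, as 4 pairs matched for age, and the ovaries were also matched for age. L2-fKO mice are Zfp36l2-/- through recombination of loxP sites around exon 2 by a Cre under the CMV promoter, which is active in the early embryo, so the gene is lost throughout the body. The wild-type littermates carry the same CMV-Cre transgene, so both genotypes share it. By the labels 2 wild-type spleens came from females and 2 from males, 1 L2-fKO spleen came from a female and 3 from males, and the labels give neither the age of each animal nor which animals were paired. A single L2-fKO female gave both spleen 3 and ovary 1. The labels call the spleen source an organoid, and 2 wild-type spleens carry the number 3, of which the male one is called wild-type spleen 4 here.

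ZFP36L2 and its relatives ZFP36 and ZFP36L1 are zinc finger proteins that bind AU-rich elements in the 3′UTR of an mRNA and recruit deadenylases, which shortens the life of that mRNA. Immediate-early mRNAs are transcribed within minutes of a stimulus without new protein synthesis and are then quickly degraded. Cytokine mRNAs such as Tnf are the textbook case of decay through AU-rich elements, and in myeloid cells this decay limits inflammation.

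The spleen libraries hold 39138010 to 45167464 counts on genes and the ovary libraries 31052510 to 44270070 reads. Counting error weighs most on Il6, Il10, Lif and Ptgs2, which had at most 29.8 normalized counts in any spleen. Zfp36l2 itself had 7394, 4773, 6429 and 4362 normalized counts in the wild-type spleens and 278, 326, 349 and 405 in the L2-fKO spleens, with a log2 fold change of -4.08 ± 0.21 (SE). In the ovary it had 4868, 4906 and 4745 in the wild type and 758, 1011 and 1009 in L2-fKO, a log2 fold change of -2.40 ± 0.12. Only exon 2 is deleted and the tables give 1 value for the whole gene, so the exons that the remaining reads came from are not known. Markers of T cells, B cells and erythroid cells were present in every spleen, and the oocyte markers summed to 106440 to 128563 in every ovary. Some cell type lists moved with genotype in the spleen and are given at the end beside the members.

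The members were read first for the AU-rich motifs they carry, because these are what the ZFP36 proteins bind. The 5-mer AUUUA and the 7-mer UAUUUAU were counted on the sense strand, with overlaps, over the longest 3′UTR that is annotated for a gene, and each 7-mer also holds a 5-mer. Of the 49 members, 46 hold at least 1 AUUUA, 32 hold at least 1 UAUUUAU and 18 hold 2 or more. Bhlhe40, Gadd45b and Ier2 hold neither. Among all genes tested in the spleen that have an annotated 3′UTR, 69.9% hold the 5-mer and 29.5% the 7-mer, against 93.8% and 64.6% of the 48 members tested, whose 3′UTRs are shorter (median 1148 against 1331 bases). The members were picked as mRNAs of this kind, so these shares describe the choice.

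The windows of 30 bases below are the part of each 3′UTR with the most 7-mers, or a 5-mer where there is none, and were chosen because these members either differed in the spleen or are textbook targets. Every 7-mer is in capitals, as is the 5-mer of Junb and Klf4, and the sequence is written as RNA from GENCODE M21 on GRCm38.
Tnf: uUAUUUAUUAUUUAUUUAUUAUUUAUUUAU
Ptgs2: acugaccaUAUUUAUUUAUUUAUgugaaga
Il1a: ucuaugUAUUUAUaaauaUAUUUAUgauaa
Il1b: cuuaccUAUUUAUUUAUgUAUUUAUugauu
Il6: auuuaugauugaUAUUUAUuauuuuuauga
Il10: cucucuccgaaaUAUUUAUuaccucugaua
Fos: guguuuucaauuUAUUUAUuaagauggauu
Rgs1: uuaaauguuuauUAUUUAUuacuugaagau
Pim1: uuaaugUAUUUAUUUAUUUAUUUAUuuggu
Ier3: cuaauuaaUAUUUAUgUAUUUAUguauauc
Junb: aauauauuuguguAUUUAacagggagggga
Klf4: auauguaauauaaAUUUAagcaaacuucua

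The windows of Tnf (chr17:35199678-35199707), Il1a (chr2:129300103-129300132), Il1b (chr2:129364802-129364831), Rgs1 (chr1:144243182-144243211), Junb (chr8:84977127-84977156) and Klf4 (chr4:55527258-55527287) are on the minus strand. Those of Ptgs2 (chr1:150105789-150105818), Il6 (chr5:30019727-30019756), Il10 (chr1:131024384-131024413), Fos (chr12:85477102-85477131), Pim1 (chr17:29495690-29495719) and Ier3 (chr17:35822484-35822513) are on the plus strand. Tnf holds the most 7-mers, 8 in a 3′UTR of 764 bases, of which 5 are in the window shown. Pim1 holds 4, all in 1 overlapping run, and Ier3 also holds 4. Il1a and Il1b hold 3 each, whereas Il6 and Rgs1 hold 1 7-mer each, and their 10 5-mers each include the 1 inside it. Junb and Klf4 hold only 5-mers, 2 and 1.

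In the spleen 6 of the 48 members tested rose and 1 fell in L2-fKO at an adjusted p below 0.05. Il1a, Il6, Junb, Rgs1, Pim1 and Ier3 rose and Klf4 fell. The 6 that rose are 12.5% of the members tested, and 6.89% of all genes tested rose; the 1 that fell is 2.08%, and 6.51% of all genes fell. With the study's additional limit of an absolute log2 fold change above 1, Il1a, Il6, Rgs1 and Pim1 remained as higher (8.33%, against 2.9% of all genes) and none as lower (3.11% of all genes). Il6 met the count minimum only through the L2-fKO spleens, so it could be tested only because it was high there. All counts and shares of spleen members that include Il6, here and below, carry this limit. The median log2 fold change over the 48 members was 0.06 and that over all genes tested was -0.02, and 25 members lay above 0 and 23 below. Tnf and Lif, which hold the most 7-mers of the members tested, were not among those that rose.

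**Figure D1:**
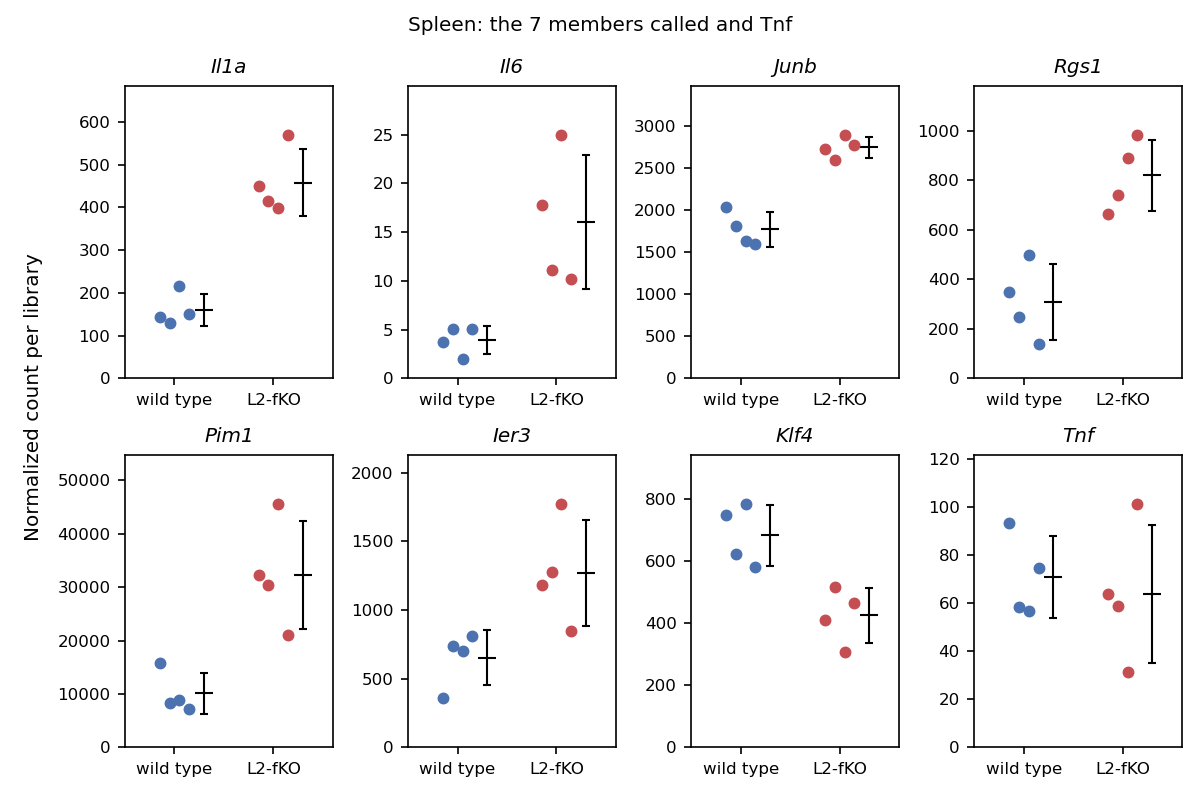
Normalized counts (y axis, starting at 0) of the 7 members that passed the test in the spleen and of Tnf, with 1 point per library and the mean ± SD of the 4 libraries beside each group. The groups do not overlap for the 7 members called, and they overlap for Tnf.

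Among the cytokines and Ptgs2, the interleukins 1α and 6 rose. Il1a (chr2:129299610-129309972), which codes for an alarmin released by damaged cells and macrophages, had 144, 129, 216 and 152 normalized counts in wild-type spleens 1 to 4 and 449, 415, 398 and 569.6 in L2-fKO spleens 1 to 4. Every L2-fKO spleen was above every wild-type spleen, with means of 160.2 ± 38.1 and 458 ± 77.5 (SD, n = 4). The log2 fold change was 1.51 ± 0.20 (SE, as in what follows) and the adjusted p was 0.00136. Il6 (chr5:30013114-30019981), the cytokine that drives acute-phase and plasma cell responses, was near the limit of detection, with 3.77, 5.05, 1.99 and 5.05 in the wild type and 17.7, 11.1, 25.0 and 10.2 in L2-fKO. The groups did not overlap and the log2 fold change was 1.97 ± 0.43 (adjusted p = 0.0159), but it rests on few reads and leaving out any 1 L2-fKO spleen took Il6 below the count minimum.

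Il1b, the other interleukin 1 gene, had 86.8, 61.6, 146 and 62.7 in the wild type and 159.7, 142, 158 and 153 in L2-fKO. The L2-fKO spleens lay close together and above 3 of the 4 wild-type spleens, while wild-type spleen 3 reached their level. Its log2 fold change of 0.78 ± 0.28 did not pass the test (adjusted p = 0.0950), and without wild-type spleen 3 it did (log2 fold change 1.12, adjusted p = 0.00775). Tnf had 93.4, 58.6, 56.7 and 74.8 in the wild type and 63.7, 58.7, 31.5 and 101.5 in L2-fKO, with L2-fKO spleen 3 lowest and L2-fKO spleen 4 highest of all 8. Its log2 fold change was -0.14 ± 0.34 (adjusted p = 0.814), with the wild-type and L2-fKO values interleaved. It turned to 0.02 without wild-type spleen 1 and to 0.08 without L2-fKO spleen 3.

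Il10, which codes for an anti-inflammatory cytokine, had 9.43, 13.1, 4.97 and 10.1 in the wild type and 12.5, 17.7, 8.69 and 23.0 in L2-fKO, with a log2 fold change of 0.73 ± 0.39 (adjusted p = 0.255). The groups overlapped. Ptgs2, the inducible cyclooxygenase of prostaglandin synthesis, had 1.89, 6.06, 3.98 and 3.03 in the wild type and 2.09, 3.32, 0 and 5.97 in L2-fKO and was below the count minimum, so a difference was not detectable at this depth. The growth factor genes Csf1 and Lif had log2 fold changes of 0.37 ± 0.25 and -0.21 ± 0.31 (adjusted p = 0.359 and 0.689). Per kilobase of exon the cytokine mRNAs covered a wide range in the wild-type spleen, from 0.816 normalized counts for Ptgs2 and 1.63 for Il6 to 43.2 for Tnf, 81.2 for Il1a and 373 for Csf1.

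AP-1 is a family of dimeric transcription factors made of Fos, Jun, Atf and Maf proteins, and 1 of its 8 members listed here, Junb, passed the test. Junb (chr8:84974484-84978718), which codes for a Jun protein of lymphoid and myeloid differentiation, had 2039, 1809, 1635 and 1594 in the wild type and 2729.8, 2591, 2895 and 2773 in L2-fKO. The difference was modest and even, with a log2 fold change of 0.63 ± 0.11 (adjusted p = 0.00469) and no overlap between the groups. Fos, the prototype immediate-early gene, had 124, 137, 248 and 99.0 in the wild type and 130.5, 191, 175 and 220.0 in L2-fKO, and wild-type spleen 3 was the highest of the 8. Its log2 fold change was 0.24 ± 0.29 (adjusted p = 0.635). Jun, the partner of Fos, had 1102, 1463, 843 and 1282 in the wild type and 1015, 946, 694 and 1138 in L2-fKO, with overlapping groups and a log2 fold change of -0.31 ± 0.20 (adjusted p = 0.336).

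The other AP-1 members did not pass the test. Maff, a small Maf protein, did not overlap between the groups and had a log2 fold change of 0.43 ± 0.15 (adjusted p = 0.0840). Fosb, Fosl2, Jund and Atf3 overlapped, at -0.74, -0.08, -0.37 and 0.31. Jund, which is less inducible than its relatives, had the highest level per kilobase of all 49 members in the wild-type spleen, 5532 normalized counts, against 769 for Junb, 368 for Jun and 64.7 for Fos.

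Of the 10 other immediate-early transcription factors, Klf4 fell and none rose. Klf4 (chr4:55527143-55532466), a Krüppel-like factor that promotes monocyte differentiation, had 748, 623, 785 and 580.1 in the wild type and 410.2, 516, 309 and 466 in L2-fKO. Every L2-fKO spleen was below every wild-type spleen, the log2 fold change was -0.69 ± 0.18 and the adjusted p was 0.0327, and Klf4 lost the call when any 1 library other than L2-fKO spleens 2 and 4 was left out (adjusted p = 0.0541 to 0.0953). Klf2, a related factor of lymphocyte quiescence and endothelium, had 7492, 4306, 2169.7 and 4111 in the wild type and 2949, 2672, 1879 and 3672 in L2-fKO. Wild-type spleen 1 was the highest of the 8 and L2-fKO spleen 3 the lowest, and the log2 fold change of -0.69 ± 0.33 had an adjusted p of 0.198. It passed the test without wild-type spleen 3 (log2 fold change -0.93, adjusted p = 0.0482).

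Egr1, a zinc finger factor induced by growth factors, had 1000.6, 678, 399 and 676 in the wild type and 981, 1046, 1016 and 1841 in L2-fKO, where L2-fKO spleen 4 stood apart. Its log2 fold change of 0.83 ± 0.29 did not pass the test (adjusted p = 0.0886). Wild-type spleen 1 lay within the range of L2-fKO, and without that spleen Egr1 passed (log2 fold change 1.06, adjusted p = 0.0416). Its relatives Egr2 and Egr3 went the other way in value, at -0.13 and -0.75, with wide spreads. Myc, the growth regulator, had 3866, 3369.9, 2156 and 3522 in the wild type and 2591, 2754, 2123 and 2403 in L2-fKO. The log2 fold change of Myc was -0.39 ± 0.17 (adjusted p = 0.172), and without wild-type spleen 3 it was -0.54 (adjusted p = 0.0170). Klf6, Klf10, Csrnp1 and Bhlhe40 did not pass the test, at -0.07, -0.39, -0.59 and 0.47. In this group 8 of 10 members lay below 0, and the median was -0.39. Above 0 lay 20% of the group, against 47.8% of all genes tested.

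None of the 5 regulators of NF-κB passed the test in the spleen. Nfkbia, which codes for the inhibitor IκBα and is itself induced by NF-κB, had 5043, 3684, 2157 and 3040.1 in the wild type and 2039.7, 2061, 1975 and 3257 in L2-fKO, with a log2 fold change of -0.58 ± 0.26 (adjusted p = 0.169). Tnfaip3, the gene of the ubiquitin-editing enzyme A20, had 1189, 904, 509.9 and 755 and 637, 669, 757 and 998, and its log2 fold change of -0.13 ± 0.25 (adjusted p = 0.759) became 0.08 without wild-type spleen 1. Zc3h12a, the gene of the RNase Regnase-1 that degrades Il6 mRNA, had 319, 232, 231 and 245 and 279, 268, 268 and 476. Within each genotype 1 spleen stood above the other 3, and the log2 fold change was 0.33 ± 0.22 (adjusted p = 0.356). The nuclear IκB genes Nfkbiz and Nfkbid differed in sign, at 0.66 ± 0.26 and -0.70 ± 0.43 (adjusted p = 0.124 and 0.315).

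Of the 7 phosphatases and signalling brakes, Rgs1 rose and the others did not pass the test. Rgs1 (chr1:144242296-144249242), a regulator of G protein signalling that dampens chemokine receptors in leukocytes, had 349.9, 246, 499 and 140.5 in the wild type and 665, 742, 891 and 985 in L2-fKO. The L2-fKO spleens were all above the wild type, with means of 821 ± 144 against 309 ± 153 (SD, n = 4). The log2 fold change was 1.41 ± 0.33 and the adjusted p 0.0210. Without wild-type spleen 2 the adjusted p was 0.0732. Rgs2, which lies near it on chromosome 1 and codes for a brake on Gq signalling, had a log2 fold change of -0.55 ± 0.23 in the other direction (adjusted p = 0.140).

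Dusp1, a phosphatase that inactivates p38 and JNK, had 1838, 2012, 3051 and 2796 in the wild type and 3207, 3387, 3813 and 2115 in L2-fKO. The groups overlapped, and the log2 fold change was 0.37 ± 0.21 (adjusted p = 0.284). The other MAP kinase phosphatases Dusp2, Dusp5 and Dusp6 and the EGF receptor inhibitor Errfi1 had log2 fold changes between -0.25 (Dusp2) and 0.15 (Dusp5), all within 1 SE of 0.

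In the group of growth arrest genes, stress genes and kinases, Pim1 and Ier3 rose. Pim1 (chr17:29490753-29496112), a serine/threonine kinase that promotes survival downstream of cytokine receptors, had 15853, 8356, 8920.2 and 7249 in the wild type and 32212, 30397, 45600.3 and 21042 in L2-fKO. The lowest L2-fKO spleen was above the highest wild-type spleen, and the log2 fold change was 1.68 ± 0.29 (adjusted p = 0.00577). At 9611 normalized counts per kilobase against 3003 in the wild type, it was the most abundant of the 49 mRNAs in the L2-fKO spleen. Ier3 (chr17:35821684-35822923), an early response gene that modulates apoptosis and a known ZFP36 target, had 358, 739, 701 and 809 and 1182, 1275, 1773 and 845. The groups did not overlap, although wild-type spleen 4 and L2-fKO spleen 4 were close, and the log2 fold change was 0.96 ± 0.28 (adjusted p = 0.0482). Ier3 lost the call when any 1 library other than L2-fKO spleen 4 was left out (adjusted p = 0.0629 to 0.107).

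Pim3, a close relative of Pim1, and Plk2, a stress-induced polo-like kinase, did not overlap between the groups but did not pass the test, at 0.51 ± 0.15 (adjusted p = 0.0510) and 0.54 ± 0.17 (adjusted p = 0.0673). Btg2, an antiproliferative gene whose product binds the deadenylase complex, had 10535, 12258, 6687 and 14117 in the wild type and 8662, 7798, 9442 and 4392 in L2-fKO. L2-fKO spleen 4 was the lowest of the 8, and the log2 fold change was -0.53 ± 0.27 (adjusted p = 0.231). Btg1, Gadd45a, Gadd45b, Plk3, Ier2 and Ier5 had values from -0.40 (Gadd45b) to 0.27 (Plk3), of which Ier5 was the closest to the threshold (-0.37 ± 0.12, adjusted p = 0.0742).

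Counted by overlap alone, 9 members were higher in every L2-fKO spleen than in every wild-type spleen (18.8% of the 48, against 9.61% of all genes tested), the 6 that rose and Maff, Plk2 and Pim3. Klf4 alone was lower in every L2-fKO spleen (2.08%, against 10.8% of all genes). Il1a, Junb and Pim1 were called in all 14 other fits tried, and Rgs1 in 13 of them. DESeq2 called 11 members as higher (22.9%, against 9.96% of all genes in that fit) and 2 as lower (4.17%, against 9.5%), adding Il1b, Maff, Egr1, Plk2 and Pim3 above and Ier5 below. Fitted with the replicate number as a block, only Il1a, Junb, Rgs1 and Pim1 were called as higher (8.33%, against 3.96% of all genes) and none as lower (3.42% of all genes). With sex as a covariate the log2 fold changes of Ier3 and Klf4 were 0.96 and -0.69, near those above, but neither was called (adjusted p = 0.0686 and 0.0586, edgeR). In that fit 6 members were called as higher, with Il1b in place of Ier3 (12.5%, against 6.56% of all genes), and none as lower (5.84% of all genes).

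The 48 members also varied together between animals of 1 genotype. Wild-type spleen 1 was the highest of the 4 wild-type spleens for 28 of the 48 members (58.3%, against 28.5% of all genes tested), and wild-type spleen 3 was the lowest for 28 (58.3%, against 31.3%). In wild-type spleen 1 12 members were more than 2 times their level in wild-type spleen 3 (25%, against 8.12% of all genes). The widest ratio was that of Egr3, 5.62, followed by Dusp2 at 4.24, Errfi1 at 3.73 and Egr2 at 3.70. Among the L2-fKO spleens, number 4 was highest for 29 members (60.4%, against 43.1%) and number 3 was lowest for 24 (50.0%, against 37.1%). The median difference of the members from the wild-type mean, on the log2(normalized count + 1) scale, was 0.30 in wild-type spleen 1, -0.28 in wild-type spleen 3, 0.35 in L2-fKO spleen 4 and -0.13 in L2-fKO spleen 3. The lymphocyte markers were high and low in the same libraries: the summed B cell markers were 64265 in wild-type spleen 1 and 12462 in wild-type spleen 3, the highest and lowest of the 8, and 34252 in L2-fKO spleen 4 and 13347 in L2-fKO spleen 3, the highest and lowest of that genotype. The summed T cell markers were 5983 and 2133 in the same wild-type spleens and 5968 and 2599 in the same L2-fKO spleens. The part of lymphocyte content in the members' levels was not tested. With wild-type spleen 1 and L2-fKO spleen 4 both left out, a setting chosen after the data were seen, 8 members were called as higher (16.7%, against 9.43% of all genes in that fit) and 2 as lower (4.17%, against 8.92%). Egr1 and Pim3 joined those above and Klf10 and Rgs2 were called below, while Klf4 was not (adjusted p = 0.0515).

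**Figure D2:**
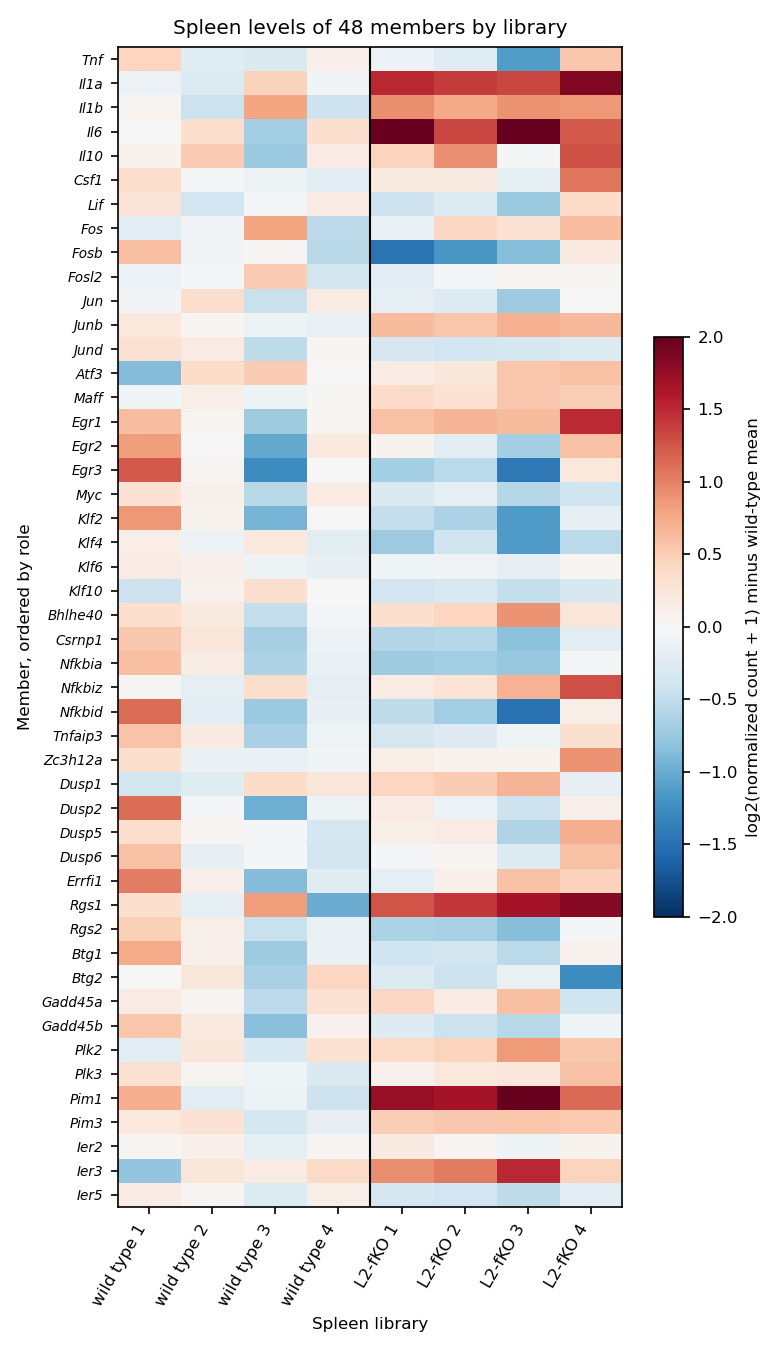
Heat map of the 48 members tested (rows, by role) in the 8 spleen libraries (columns), coloured by log2(normalized count + 1) minus the mean of the 4 wild-type spleens, with colours cut at -2 and 2. Il1a, Rgs1 and Pim1 are red in all 4 L2-fKO spleens, while many other members are red in wild-type spleen 1 and blue in wild-type spleen 3, at median differences of 0.30 and -0.28.

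In the ovary no member passed the test in either direction with limma on log2(normalized count + 1), while 1.23% of the 18504 genes tested rose and 0.351% fell. At an unadjusted p below 0.05, 7 of the 42 members were higher (16.7%, against 9.88% of all genes) and 2 were lower (4.76%, against 6.95%). The 7 were Maff, Klf2, Tnfaip3, Zc3h12a, Dusp2, Plk2 and Ier3, and the 2 were Csrnp1 and Dusp5. edgeR on the recovered reads called no member as higher (1.24% of all genes) or lower (0.372%), and DESeq2 on the same reads called Maff, Tnfaip3, Zc3h12a and Dusp2 as higher (9.52%, against 4.37% of all genes in that fit) and none as lower (1.65% of all genes). Ovary levels were normalized apart from those of the spleen, and no test was made between the organs.

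Zc3h12a, Dusp2, Tnfaip3 and Maff had the lowest adjusted p of the members in the ovary. Zc3h12a had 77.9, 71.0 and 77.1 normalized counts in wild-type ovaries 1 to 3 and 119, 144 and 128 in L2-fKO ovaries 1 to 3, and the groups were well apart. Its log2 fold change was 0.78 ± 0.17 with an adjusted p of 0.0819. Tnfaip3 had 253, 234 and 249.6 and 394, 379 and 306, again without overlap, at 0.54 ± 0.14 (adjusted p = 0.117). Dusp2, a phosphatase of ERK in leukocytes, did not overlap and had a log2 fold change of 0.65 ± 0.15 (adjusted p = 0.0849), and Maff had 0.60 ± 0.18 (adjusted p = 0.157). All 5 NF-κB regulators had values above 0, with Nfkbia at 1374, 1207 and 1368 in the wild type and 1606, 1353 and 1489 in L2-fKO (0.17 ± 0.09, adjusted p = 0.411).

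Of the 6 members that rose in the spleen, Pim1, Junb and Ier3 were tested in the ovary and did not pass there. Pim1 had 841, 847 and 762 in the wild-type ovaries and 968, 748 and 851 in L2-fKO, a log2 fold change of 0.06 ± 0.11 (adjusted p = 0.826). Junb had 277, 475 and 169.7 and 427, 289.8 and 371, with the L2-fKO values inside the wild-type range (0.34 ± 0.35, adjusted p = 0.662). Ier3 had 268, 281 and 208 and 402, 327 and 287, with the groups narrowly apart and a log2 fold change of 0.42 ± 0.18 (unadjusted p = 0.0482, adjusted p = 0.292, limma). Klf4, which fell in the spleen, had 557, 554 and 362 in the wild type and 645, 640.1 and 465 in L2-fKO (0.26 ± 0.21, adjusted p = 0.573).

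Fos, Egr1, Jun and Myc had wide spreads in the ovary, larger in the wild type for Fos, Egr1 and Jun and larger in L2-fKO for Myc. Fos had 84.0, 282 and 58.7 in the wild type and 174, 136 and 253 in L2-fKO, and Egr1 had 1943, 4694 and 1221 and 2955, 2757 and 3445. For both, wild-type ovary 2 was the highest and wild-type ovary 3 the lowest of all 6, and the log2 fold changes were 0.69 ± 0.55 and 0.44 ± 0.42 (adjusted p = 0.568 and 0.641). Jun had 1859, 3002 and 1540.5 and 2287, 2512 and 2094, with the L2-fKO values inside the wild-type range (0.16 ± 0.22, adjusted p = 0.757). Myc had 2546, 2188 and 2009 and 2314, 746 and 2593, where L2-fKO ovary 2 was far below the other 5 (-0.44 ± 0.43, adjusted p = 0.647, and 0.13 without that ovary). The summed granulosa and stroma markers were also lowest in L2-fKO ovary 2, at 46234 against 83599.7 to 99944.5 in the other 5 ovaries, and their part in the level of Myc was not tested.

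Klf2 had 963, 1240.0 and 1131 and 1322, 1594 and 1261 in the ovary, narrowly without overlap, and its log2 fold change was 0.32 ± 0.13 (adjusted p = 0.261). Dusp1 had 315, 314 and 240.4 and 418, 377 and 298, at 0.33 ± 0.18 (adjusted p = 0.400). Btg2 had 1195, 1524 and 971 and 1350.4, 1540.3 and 1258, at 0.19 ± 0.16 (adjusted p = 0.608). Both overlapped between the genotypes. The remaining members ran from -0.54 for Rgs2, -0.43 for Csrnp1 and -0.29 for Dusp5 up to 0.70 for Egr3, which had only 1.83 to 25.1 normalized counts per library.

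**Figure D3:**
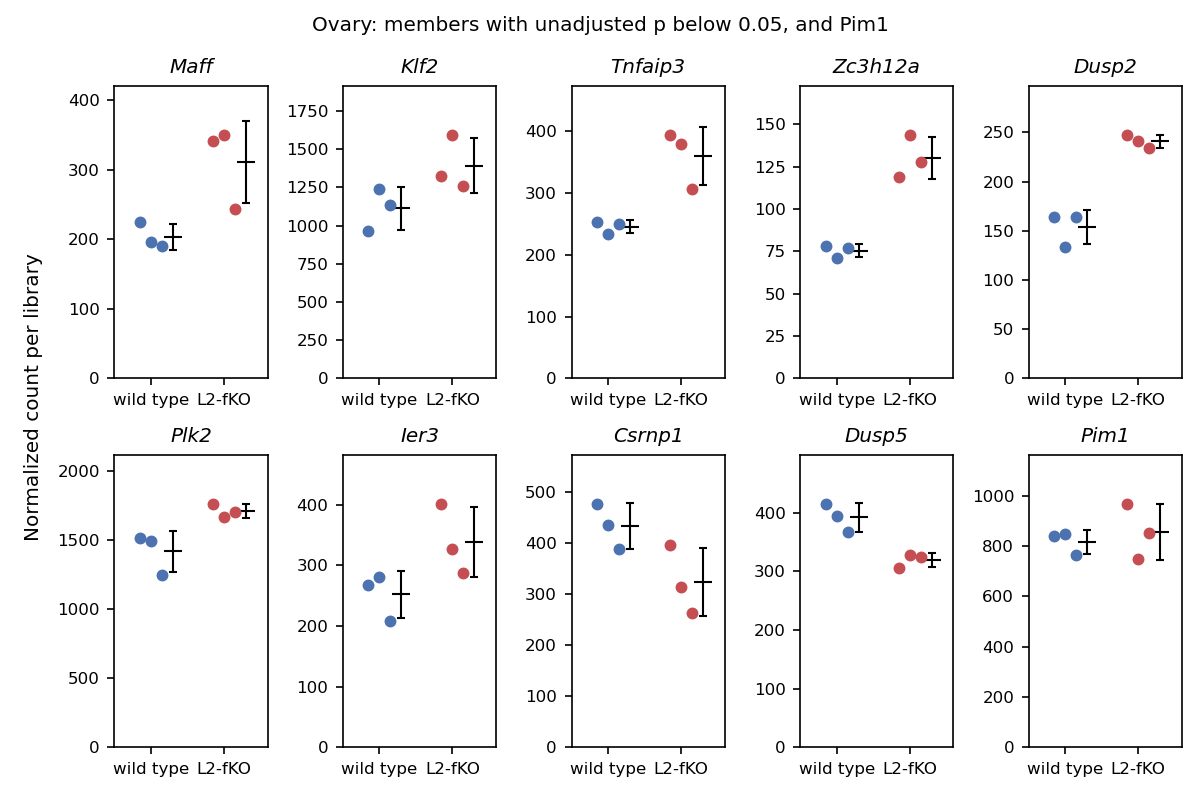
Normalized counts (y axis, starting at 0) in the 3 wild-type and 3 L2-fKO ovaries for the 9 members with an unadjusted p below 0.05 and for Pim1, with 1 point per library and the mean ± SD beside each group. The groups of Zc3h12a, Tnfaip3 and Dusp2 are well apart, with log2 fold changes of 0.78, 0.54 and 0.65, and those of Pim1 overlap.

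Small differences in the ovary lay mostly in 1 direction. Of the 42 members, 37 had a log2 fold change above 0 (88.1%, against 49.3% of all genes tested), and their median was 0.18, against -0.0042 over all genes. By overlap, 8 were higher in every L2-fKO ovary than in every wild-type ovary (19.0%, against 13.2% of all genes), while Dusp5 alone was lower in every one (2.38%, against 12% of all genes). Wild-type ovary 3 was the lowest of the 3 wild-type ovaries for 27 of the 42 members (64.3%, against 33.8% of all genes). Without wild-type ovary 3 the median was 0.08 and 30 members lay above 0, and without L2-fKO ovary 1 it was 0.18 with 31 above 0. The members respond to shared stimuli and are not independent of each other, so no test was made over them.

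**Figure D4:**
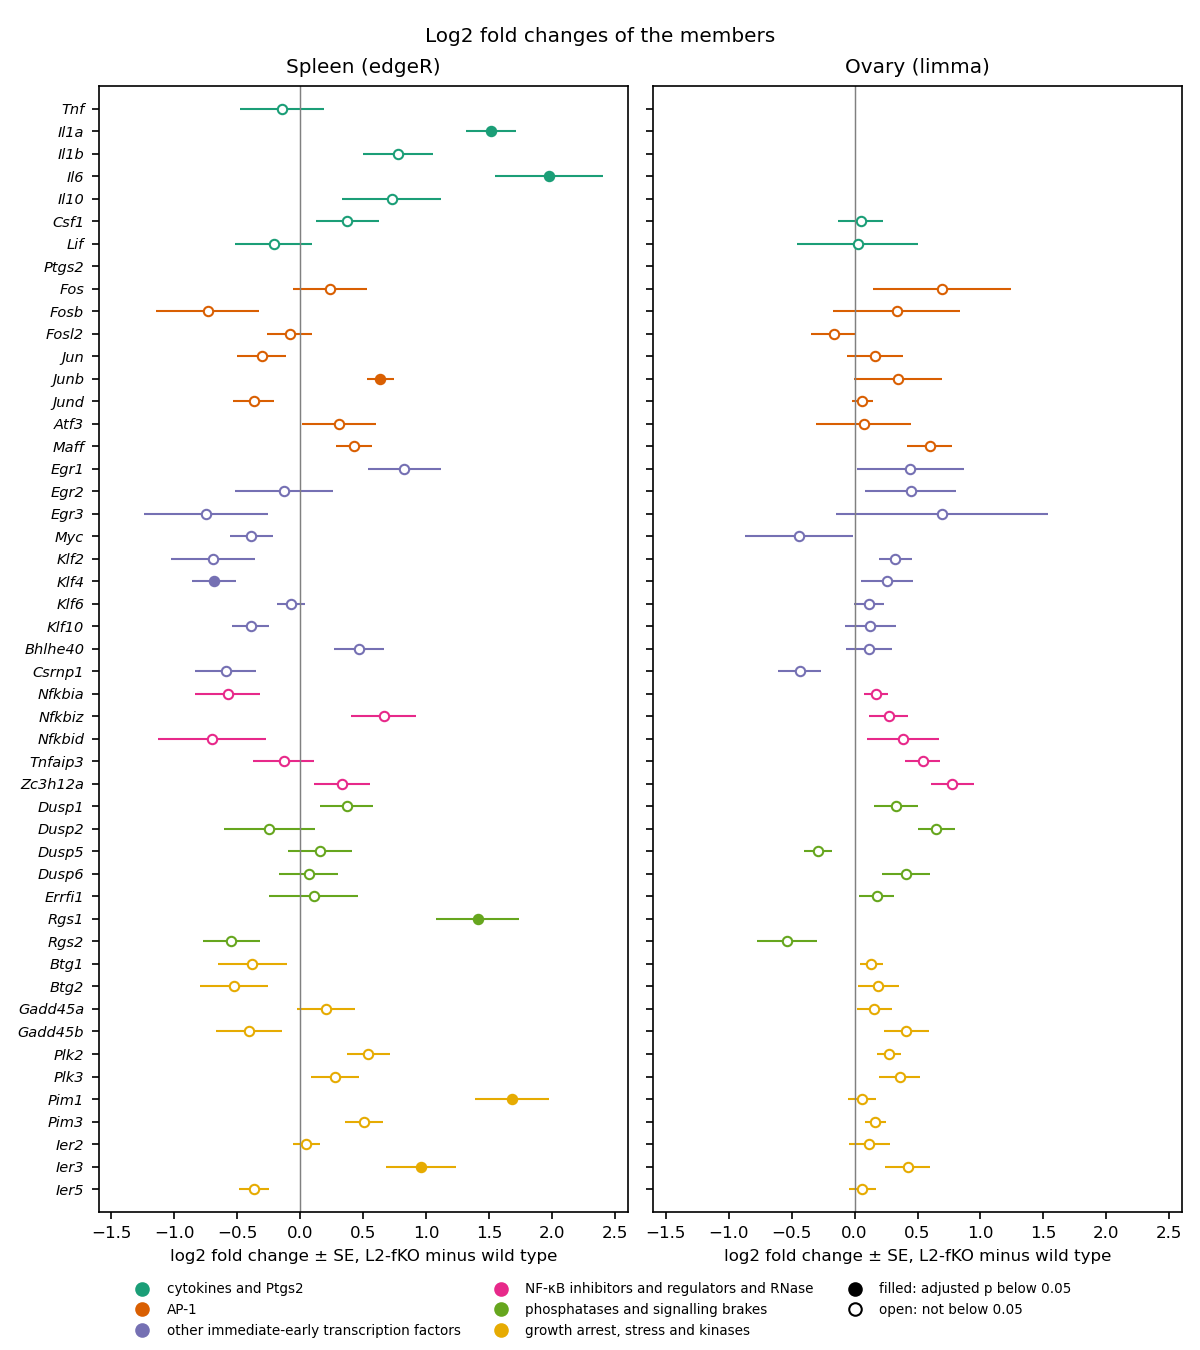
Log2 fold change ± SE (x axis, L2-fKO minus wild type) of each member (y axis, coloured by role) in the spleen, from edgeR, and in the ovary, from limma, with filled points for an adjusted p below 0.05. The spleen values scatter on both sides of 0 (25 of 48 above), while the ovary values lie mostly above 0 (37 of 42) and none is filled.

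Of the 42 members tested in both organs, 19 had values above 0 in both, 4 below 0 in both, 18 below 0 in the spleen and above 0 in the ovary, and 1, Dusp5, the reverse. The 4 below 0 in both were Fosl2, Myc, Csrnp1 and Rgs2. Klf2 was -0.69 ± 0.33 in the spleen and 0.32 ± 0.13 in the ovary, Nfkbia -0.58 ± 0.26 and 0.17 ± 0.09, and Dusp2 -0.25 ± 0.36 and 0.65 ± 0.15. Whether the effect of genotype differs between the organs was not tested for any member, and the libraries share 1 L2-fKO animal.

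The number of 7-mers was set beside the fold changes as a description. Of the 6 members that rose in the spleen, 5 hold at least 1 UAUUUAU and Junb holds none. Of the other 42 members tested, 26 hold at least 1 (61.9%). The 17 members with 2 or more 7-mers had a median spleen log2 fold change of 0.37 with 11 above 0 and 3 that rose, the 14 with 1 had a median of -0.28 with 6 above 0 and 2 that rose, and the 17 with none had a median of -0.13 with 8 above 0 and 1 that rose. Tnf with 8 and Lif with 5 7-mers were at -0.14 and -0.21. In the ovary the medians were 0.27 for the 13 members with 2 or more, 0.16 for the 12 with 1 and 0.27 for the 17 with none. Over all genes, 33.2% of those that rose in the spleen hold the 7-mer, 23.8% of those that fell and 29.5% of those tested, with median 3′UTR lengths of 1649, 988 and 1331 bases. Longer 3′UTRs hold more motifs by length alone, and the part of length was not tested.

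**Figure D5:**
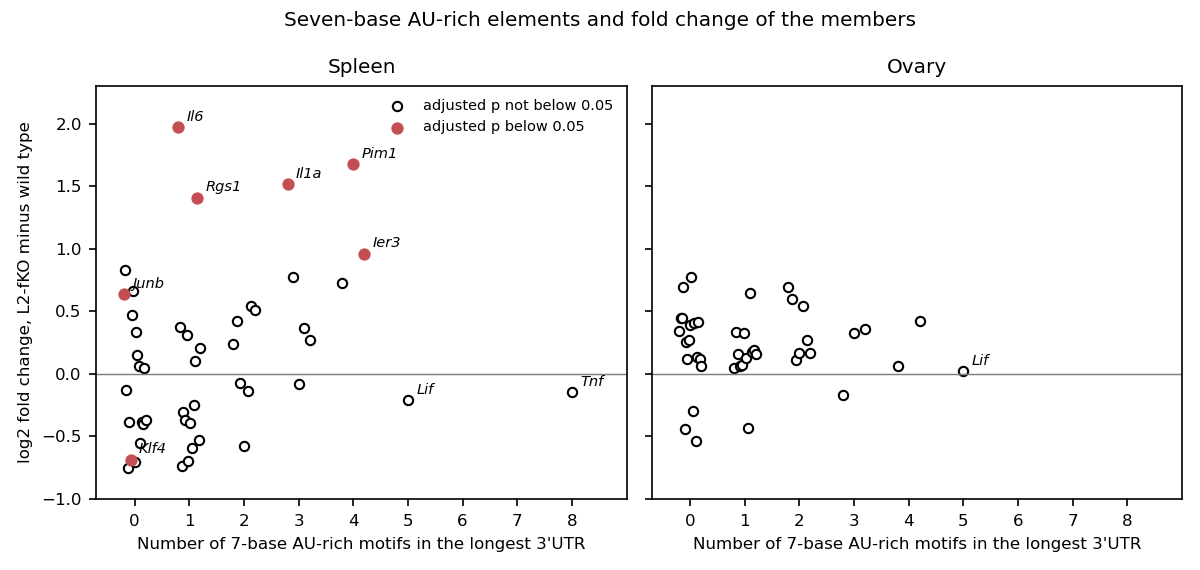
Number of 7-base AU-rich motifs in the longest 3′UTR (x axis, points spread sideways within each number) against the log2 fold change (y axis, L2-fKO minus wild type) of each member in the spleen and in the ovary. The members that rose in the spleen carry 0 to 4 motifs, and Tnf, with 8, lies at -0.14.

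Other genes of the same response were taken as 3 lists. Their counts stand beside 6.89% of all genes tested that rose and 6.51% that fell in the spleen. In the ovary these shares were 1.23% and 0.351%. Of 46 further immediate-early mRNAs and mRNAs with AU-rich elements, 39 were tested in the spleen, 7 rose and 2 fell, with a median of 0.13. Those that rose most were Socs3, the feedback inhibitor of IL-6 receptor signalling (2.42 ± 0.15), the neutrophil chemokine Cxcl1 (2.31 ± 0.45) and the monocyte chemokine Ccl2 (2.04 ± 0.48). Cxcl1, with a mean of 3.95 normalized counts in the wild type, met the count minimum only through the L2-fKO spleens. It could be tested only because it was high there, and the counts of 39 tested and 7 that rose carry this limit. Those that fell were Thbs1, a platelet matrix protein (-3.26 ± 0.17), and the phosphatase Dusp10 (-0.97 ± 0.25). In the ovary none of the 37 tested passed the test. Of 28 genes for the receptors, kinases and factors that induce such mRNAs, 5 rose in the spleen, led by the endotoxin receptor Tlr4 (0.86 ± 0.22) and the interleukin 1 receptor Il1r1 (0.80 ± 0.12), and the kinases Mapk3 (-0.41 ± 0.08) and Mapk9 (-0.32 ± 0.09) fell. In the ovary Il1r1 (0.94 ± 0.09) and the IκB kinase Ikbkb (0.39 ± 0.07) rose and none fell. Il1r1, the receptor for IL-1α and IL-1β, therefore rose in both organs.

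Of 14 proteins that bind AU-rich elements or take part in mRNA decay, Zfp36l2 and Rc3h2 (-0.46 ± 0.12), an RNA-binding Roquin protein, fell in the spleen. Elavl2 (4.75 ± 0.52), an mRNA-stabilizing Hu protein, rose there from means of 2.99 to 83.5 normalized counts. Elavl2 met the count minimum only through the L2-fKO spleens, so it could be tested only because it was high there. In the ovary Zfp36l2 alone passed the test. The relatives Zfp36 and Zfp36l1 were at -0.26 ± 0.25 and 0.09 ± 0.15 in the spleen (adjusted p = 0.527 and 0.751) and at 0.55 ± 0.12 and 0.30 ± 0.08 in the ovary (adjusted p = 0.0730 and 0.123). Zfp36 is itself an immediate-early gene.

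The cell makeup of the spleens differed by these marker lists. All 8 neutrophil markers fell in L2-fKO, with a median of -2.07 and summed levels of 126535 to 205032 in the wild type and 8395 to 47370 in L2-fKO. All 6 megakaryocyte and platelet markers fell, with a median of -4.69 and sums of 21276 to 43625 against 1120 to 1371. Of 6 mast cell markers, 5 rose and Kit fell (-1.46 ± 0.18), with sums of 3295 to 4571 in the wild type and 3130 to 15213 in L2-fKO. Among the 5, Fcer1a met the count minimum mainly through L2-fKO, with means of 7.38 normalized counts in the wild type and 64.2 in L2-fKO. Of 8 monocyte and macrophage markers, Adgre1 (0.87 ± 0.25) rose and Ccr2 (-1.61 ± 0.33) and Lyz2 (-1.58 ± 0.29) fell, and their sums overlapped, at 61221 to 77126 and 51352 to 90128. Of 5 fibroblast and stroma markers, Pdgfra (1.59 ± 0.20) and Pdgfrb (1.15 ± 0.13) rose, and of 4 endothelial markers Cdh5 (0.70 ± 0.17) rose. The other markers of these lists, and all T cell, B cell and erythroid markers, did not pass the test. In bulk RNA fewer cells of a type and less RNA per cell cannot be told apart.

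Pancreatic acinar markers were uneven among the wild-type spleens, with sums of 1620 to 11481 against 1249 to 2136 in L2-fKO. Amy2a5 was at 0 in 7 of the 8 spleens, and Ctrb1 (-8.43 ± 1.52) and Cpa1 (-5.47 ± 1.11) fell. Ctrb1 met the count minimum mainly through the wild type, with means of 3038 normalized counts there and 8.86 in L2-fKO. Wild-type spleen 1 had the highest of the acinar sums, and L2-fKO spleen 4 had the highest macrophage and mast cell sums of the 8. In L2-fKO spleen 3, the neutrophil sum was 8395 and the mast cell sum 3130, the lowest of the 8 for both, while the erythroid sum was the highest, at 758400. The mast cell sum includes Kit, with means of 2660 in the wild type and 965 in L2-fKO. It therefore does not rank the other mast cell markers, which rose, between the genotypes. In L2-fKO spleen 3, as in every L2-fKO spleen, Il1a, Il6, Junb, Rgs1, Pim1 and Ier3 were above every wild-type spleen. Il6, Junb, Pim1 and Ier3 were at their highest there, and Il1a and Rgs1 were highest in L2-fKO spleen 4. The erythroid sums in L2-fKO spleens 1 to 4 were 597617, 569437, 758400 and 374975, the same order as Pim1 in these 4 spleens, against 378662 to 454196 in the wild type. Btg2 and Gadd45a also had this order in the L2-fKO spleens. In the wild type, spleen 4 had the highest erythroid sum, 454196, and the lowest Pim1, 7249. L2-fKO spleen 4 had the lowest erythroid sum of the 8, while its Pim1, 21042, was above every wild-type spleen. In the ovary 2 T cell markers were tested. Cd4 rose (2.12 ± 0.23), while Cd3g, with means of 9.34 and 16.4 normalized counts, did not pass (0.73 ± 0.33, adjusted p = 0.315, limma). Of 4 endothelial markers Cdh5 (0.38 ± 0.07) rose, and of 5 fibroblast and stroma markers Pdgfrb (0.63 ± 0.08) rose. No macrophage, mast cell or neutrophil marker passed the test there. The summed macrophage markers were 2135 to 2793 in the wild-type ovaries and 3143 to 5076 in L2-fKO, without overlap. The part of cell makeup in the levels of the members was not tested in either organ.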

How the data were processed

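Poly(A) RNA was sequenced from 8 spleens and 6 ovaries, 1 animal per library. The spleen counts as deposited are raw: after trimming (Trimmomatic 0.36) and mapping to GRCm38 (STAR 2.5.2b), the authors used featureCounts (Subread 1.5.2) to count uniquely mapped reads on exons of the matching strand. For the ovary the authors deposited normalized signal values, in a table that also holds their DESeq2 fold changes and p-values, which were not used. Multiplied by a size factor for its library, every ovary value was a whole read within 0.001. The mapping of the ovary reads is not given in the sources used here beyond the same technique.

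Spleen counts were tested with edgeR 4.0.16 (quasi-likelihood, TMM; minimum of 10 counts in 4 libraries) and ovary values, which are not counts, with limma 3.58.1 (trend) on log2(value + 1), with a minimum of 10 in 3 libraries, in R 4.3.3. A call needed an adjusted p below 0.05, by Benjamini-Hochberg over all genes tested. DESeq2 1.42.0, other filters and scalings, sex, a replicate block and leave-one-out fits were alternatives. The tests were checked on simulated data.

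3′UTRs are the longest per gene in GENCODE M21 (21173 genes), and levels per kilobase use its merged exons. Per-library values are given for members called in either organ and for 17 well-known ones, and other lists are named by at most 4 genes per direction and organ. The members and lists were chosen with earlier results of these data known.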

Additional observations from a re-analysis of the deposited data

Results flagged for a closer look

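Of 96 groups of 4 spleens, 1 for each of 48 members and each genotype, 4 had 1 spleen far from the other 3 by Dixon's ratio (above 0.829), and chance flags about 1 in 20 such groups. Zc3h12a was far in both genotypes, with 319 normalized counts in wild-type spleen 1 (ratio 0.841) and 476 in L2-fKO spleen 4 (ratio 0.949). Egr1 had 1841 in L2-fKO spleen 4 (ratio 0.925) and Nfkbia had 3257 there (ratio 0.933). No member differed in opposite directions without overlap in the spleen and the ovary. The ovary groups, with 3 libraries each, are too small for this ratio.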

How the results depend on the processing

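In the spleen the count of members that rose was 6; it moved to 11 with DESeq2 and stayed within 1.5 times 6 elsewhere, at 4 with the study's fold limit, 4 with the replicate block and 4 to 6 when 1 library was left out. The count that fell was 1; it was 2 with DESeq2, 0 with sex as a covariate, 0 with the replicate block, 0 with the fold limit, 2 without wild-type spleen 1 and L2-fKO spleen 4 (chosen after seeing the data), and 0 to 6 when 1 library was left out, with 6 without wild-type spleen 3. In the ovary no member was called except 4 higher with DESeq2 on recovered reads, and 0 in either direction when 1 library was left out.

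Fitted with the replicate block, Il6 (log2 fold change 1.92), Ier3 (0.98) and Klf4 (-0.70) lost the call, and no other member changed. The labels do not say that the numbers mark the age-matched pairs. In the spleen the numbers did not pair the samples. Same-numbered spleens had correlations of deviations of -0.14, 0.09, 0.18 and -0.30, and the other pairs -0.30 to 0.44. Same-numbered ovaries had 0.38, 0.21 and 0.07, and the other pairs -0.33 to 0.18. Each L2-fKO ovary correlated most with the wild-type ovary of its number. With the replicate block in the ovary, 411 of all genes tested rose and 128 fell, against 227 and 65 without it. No member was called in that ovary fit. Sex as a covariate took the call from Ier3 and Klf4 and gave it to Il1b (0.98). Single-gene comparisons were made only for the members with per-library values. Among these, leaving out 1 library turned the sign of Tnf (range -0.463 to 0.0800) and Tnfaip3 (-0.313 to 0.0803) in the spleen. In the ovary it turned the sign of Jun (-0.0442 to 0.437), Junb (-0.0198 to 0.720), Myc (-0.767 to 0.131) and Pim1 (-0.0326 to 0.153). None of these was called in that organ. The causes were not tested. Of 430 such single-gene comparisons with an alternative, 392 kept direction and side of the threshold. With 3 or 4 animals per group, and few reads for Il6, Il10, Ptgs2 and Egr3, small differences could not be resolved.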
